A study of Mus musculus with 16 samples.

Results

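The loci of 3 genes with roles in regulatory T cells (Treg cells, the lymphocytes that hold immune responses in check) were examined in a list of open chromatin regions: Foxp3, Il2ra and Il2rb. The regions were selected by position, in windows that were chosen with earlier results of these data known. They are the regions that overlap chrX:7130000-7190000 (Foxp3), chr2:11540000-11640000 (Il2ra) or chr15:78280000-78360000 (Il2rb) on mouse build mm9 by at least 1 base. The Foxp3 window held 13 regions, the Il2ra window 29 and the Il2rb window 21, which made 63 of 75363 regions on the list. A region is called by the gene name of its window, which does not assign it to that gene. The windows may also take in parts of neighbouring genes.

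The list came from ATAC-seq, which uses a transposase to insert adapters into accessible DNA, of 16 samples from 8 C57BL/6 mice. Each mouse gave Treg cells, labelled CD4+CD25+, of a non-lymphoid tissue and of its spleen: epididymal visceral adipose tissue (VAT) in 2 mice, injured hindlimb skeletal muscle in 2, and colonic lamina propria in 4, of which 2 are titled Nrp1p and 2 Nrp1n. The study set tissue Treg cells against spleen Treg cells of the same mouse. The labels used here give no age, no means or time of the muscle injury and no genotype beyond the strain, and 10000 cells were sorted per sample. The deposited list is a single one for all samples, with a chromosome, a start and an end per region. It has no value per sample, so tissue and spleen could not be compared, values carry no replicate error, and the sequencing depth is unknown. All values below describe the layout of the list, with no test, because regions of 1 list are not replicates of a condition.

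Foxp3 encodes the transcription factor that maintains the Treg cell programme. Its transcription is known to depend on the promoter and on conserved noncoding elements in and before the gene, among them an intronic element that is demethylated in stable Treg cells. Il2ra encodes CD25, the alpha chain that gives the interleukin-2 receptor its high affinity, and Il2rb encodes CD122, the beta chain that signals for both interleukin-2 and interleukin-15. Interleukin-2 activates STAT5 in Treg cells, and STAT5 is known to act on both Foxp3 and Il2ra. CD25 is also part of the label by which the cells were sorted, so every sample was selected for the protein that Il2ra encodes.

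Promoter sequences were planned for all 3 genes and are shown for Foxp3 and Il2ra, because Il2rb had no promoter entry. They are RefSeq sequences of build GRCm38.p6, run from 250 bases before the annotated start to 50 after it, and lie on the plus strand. Their GRCm38.p6 positions cannot be set beside the mm9 positions of the regions. RefSeq promoter entries were found for 2 of the 3 genes, with a pair of starts for Foxp3 that lie 807 bp apart. Capitals mark every match, on both strands, to the motifs searched: TTCNNNGAA for STAT factors, TGACGTCA for the cyclic AMP response element (CRE), TGANTCA for the factor AP-1, GGAAA for the factor NFAT, CCGGAA for the family of ETS factors, TGTGGT for the RUNX factors, TGTTTAC for forkhead factors such as the Foxp3 protein, AGATAA for zinc finger factors of the GATA type, and TATAAA for the promoter element known as the TATA box.
Foxp3, first start, chrX:7579426-7579725: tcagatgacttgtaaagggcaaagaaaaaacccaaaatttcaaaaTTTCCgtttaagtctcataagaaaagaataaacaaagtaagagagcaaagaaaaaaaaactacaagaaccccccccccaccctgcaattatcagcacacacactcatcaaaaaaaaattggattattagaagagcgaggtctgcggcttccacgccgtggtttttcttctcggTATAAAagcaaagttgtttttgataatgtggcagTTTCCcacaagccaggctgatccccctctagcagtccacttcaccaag
Foxp3, second start, chrX:7580233-7580532: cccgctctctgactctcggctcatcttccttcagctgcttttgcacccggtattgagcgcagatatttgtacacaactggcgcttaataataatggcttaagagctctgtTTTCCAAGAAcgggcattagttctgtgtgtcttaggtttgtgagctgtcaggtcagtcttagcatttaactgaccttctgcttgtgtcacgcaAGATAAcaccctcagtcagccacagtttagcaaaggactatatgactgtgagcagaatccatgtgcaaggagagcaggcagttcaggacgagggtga
Il2ra, chr2:11642542-11642841: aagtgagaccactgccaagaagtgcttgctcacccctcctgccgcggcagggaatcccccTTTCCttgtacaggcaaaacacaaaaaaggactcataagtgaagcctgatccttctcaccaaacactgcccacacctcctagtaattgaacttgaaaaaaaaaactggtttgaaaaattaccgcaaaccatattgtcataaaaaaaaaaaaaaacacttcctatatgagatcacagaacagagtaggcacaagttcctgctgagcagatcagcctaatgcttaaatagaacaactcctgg

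The first Foxp3 promoter held a TATA box whose first base lies at -32, counted with the start base as 1 and no position 0, a motif found in 13.6% of all 32851 promoters of the same length, and GGAAA matches at -205 and 3. All GGAAA matches in the 3 sequences read TTTCC, the reverse complement, on the strand shown. The second Foxp3 promoter held 1 STAT match at -139, a motif found in 8.30% of promoters, which overlaps a GGAAA match at -140, and 1 GATA match at -47, found in 11.2%. The Il2ra promoter held a single match, GGAAA at -190, which 61.3% of all promoters hold. No match to the CRE, AP-1, ETS, RUNX or forkhead letters lies in any of the 3 sequences, and these letters occur in 1.79%, 7.81%, 14.9%, 16.8% and 3.65% of promoters. All 3 sequences lay below the median of promoters in G and C content. At the first Foxp3 start 11.4% of promoters were lower, at the second 30.8% and at Il2ra 15.6%. The G and C content was 40.7% at the first Foxp3 start, 47.7% at the second and 42.7% at Il2ra, beside a median of 52.7% over all promoters, and there were 6, 8 and 3 CG dinucleotides, beside a median of 7. A match is a description of the letters and not evidence of a bound factor.

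The Foxp3 locus was a dense stretch of a sparse chromosome. Its window held 21.7 regions per 100 kb, against 1.03 per 100 kb over chromosome X, a ratio of 21.1. In bases, 5.35% of the Foxp3 window lay in open regions, against 0.208% of chromosome X. When chromosome X was cut into 2674 adjoining tiles of 60 kb, 99.9% of them held fewer regions than the Foxp3 window. Most of these tiles were empty (78.8%), and the 567 that held any region had a median of 2. Only 4 tiles held as many regions as the Foxp3 window or more, up to 19, and none of the 4 overlapped it. The count was also high on the scale of the autosomes, where 98.3% of 40031 tiles of 60 kb held fewer than 13 regions.

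The stated start of Foxp3, near 7.157 Mb, fell inside a stretch without any listed region. This position is a working value given to the nearest kilobase and was not read from an mm9 annotation. Which of the RefSeq starts of Foxp3, 807 bp apart, it stands for is not known here. The gene lies on the plus strand in RefSeq, so lower coordinates are upstream. The nearest region upstream ended 4984 bp before the stated position and the nearest downstream started 4092 bp after it, which left 9075 bp free of regions. No region lay within 0.5 kb of the stated start, the error of a position rounded to the nearest kilobase. Of the gaps between neighbouring regions on chromosome X, 49.5% were shorter than this stretch, but inside the Foxp3 window only 1 gap, of 9841 bp, was longer. Absence from the list shows that no region was called there, and with depth and calling threshold unknown it does not show closed chromatin in any sample.

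Upstream of the stated Foxp3 start, the window had 8 regions in 27.0 kb, or 2.96 per 10 kb. They lay in 4 groups when neighbours with a gap under 1 kb were joined. The farthest group consisted of chrX:7132595-7132745 (151 bp wide, centre at -24.3 kb from the stated start) and chrX:7133514-7133707 (194 bp, -23.4 kb). The next was a triplet that spanned 2327 bp and held the 2 widest upstream regions. Its members were chrX:7142563-7142916 (354 bp, -14.3 kb), chrX:7143556-7143744 (189 bp, -13.35 kb) and chrX:7144577-7144889 (313 bp, -12.3 kb). The first of these was wider than 97.5% of the regions of chromosome X and the last wider than 94.7%.

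A single region followed at chrX:7149635-7149876 (242 bp, -7.24 kb). The group closest to the stated Foxp3 start was a pair at chrX:7151446-7151658 (213 bp, -5.45 kb) and chrX:7151840-7152016 (177 bp, -5.07 kb). Only 181 bp separated its members, the shortest gap in the window. In RefSeq order the protein-coding gene before Foxp3 is Ppp1r3f and the gene after it is Ccdc22, and no region was assigned to either, because no mm9 annotation was used here.

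Downstream of the stated start the Foxp3 window had 5 regions in 33.0 kb, or 1.52 per 10 kb, none of them within 1 kb of another. No end of the gene was stated, so which of these regions lie inside Foxp3 is not known here. The first, chrX:7161092-7161294 (203 bp, 4.19 kb), stood alone, with 9075 bp free before it and 7502 bp after it. The known intronic elements of Foxp3 follow the gene start, but their mm9 positions were not used here and this region was not matched to any of them. The next 3 regions were spaced 1397 and 1477 bp apart. They were chrX:7168797-7169047 (251 bp, 11.9 kb), chrX:7170445-7170687 (243 bp, 13.6 kb) and chrX:7172165-7172606 (442 bp, 15.4 kb). The region of 442 bp was the widest of all 63, and only 12 of the 1711 regions of chromosome X were as wide or wider, itself included. The last, chrX:7182448-7182684, was 237 bp wide and lay 25.6 kb after the stated start.

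**Figure D1:**
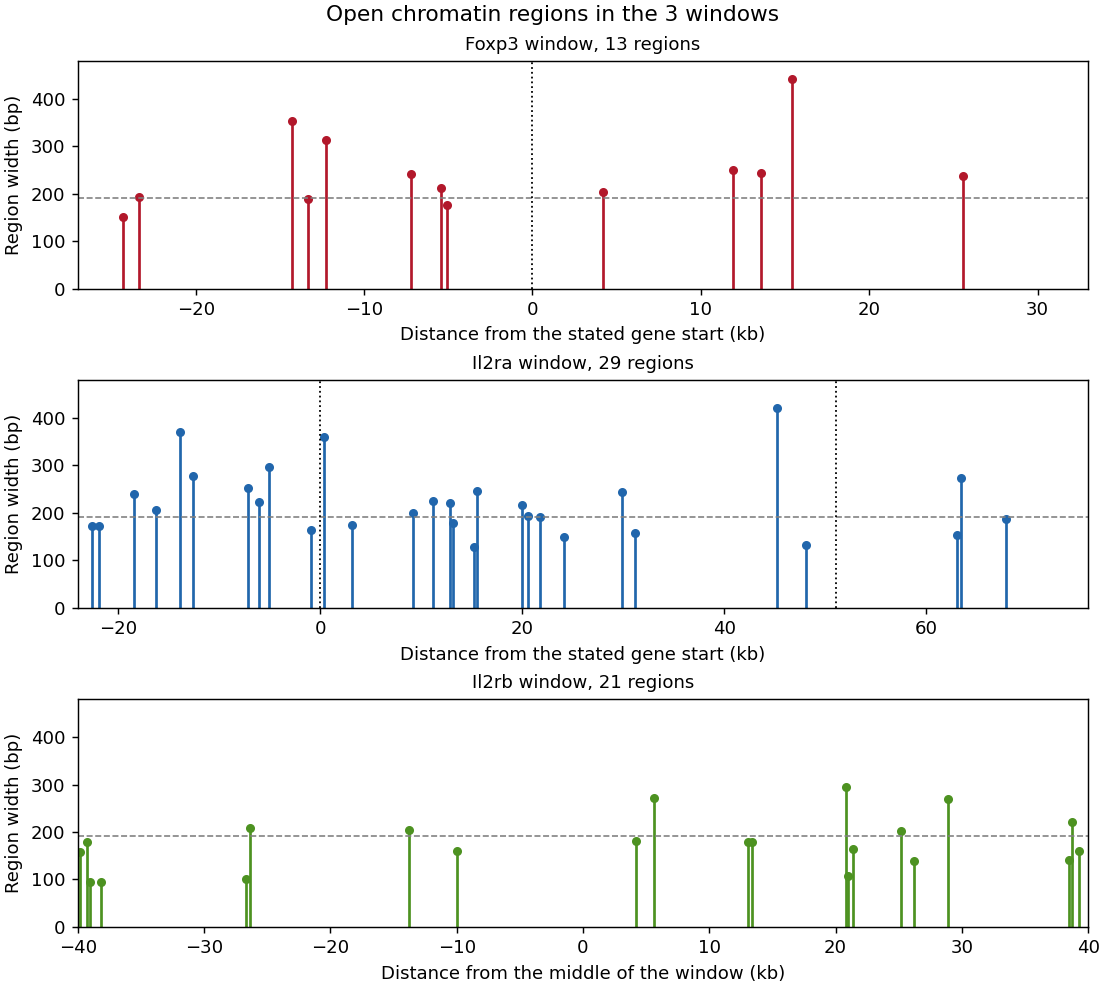
Each stem is a region, placed by its centre in kb (horizontal axis) and as tall as its width in bp (vertical axis), for Foxp3, Il2ra and Il2rb; dotted lines mark the stated gene start and, for Il2ra, end, and dashed lines the median width of the chromosome. The stated Foxp3 start lies in a region-free stretch of 9075 bp, whereas a 359 bp region begins 177 bp after the stated Il2ra start.

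The Il2ra locus was the richest of the 3 windows, with 29 regions in 100 kb, against 3.25 per 100 kb over chromosome 2, a ratio of 8.92. Open regions took up 6.43% of the Il2ra window, against 0.655% of chromosome 2. Of 1784 tiles of 100 kb on chromosome 2, 99.9% held fewer regions, and 1 tile, elsewhere on the chromosome, held as many. A typical tile was far emptier, since 46.4% held no region and the 956 others had a median of 5. On all autosomes, 99.9% of 24015 tiles of 100 kb held fewer than 29.

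In contrast with Foxp3, a region lay within 0.5 kb of the stated start of Il2ra, near 11.564 Mb. It was chr2:11564177-11564535, which began 177 bp after the stated position, within the 0.5 kb to which that position is rounded. At 359 bp it was the third widest in the Il2ra window and wider than 97.5% of the regions of chromosome 2. A narrower region, chr2:11562998-11563160 (163 bp), ended 840 bp before the stated position, and chr2:11567008-11567182 (175 bp) followed with its centre at 3.10 kb.

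By count per length, the regions of Il2ra were densest before the gene, although the fullest 10 kb of the window, with 6 regions, lay inside it. Upstream of the stated start, 10 regions lay in 24.0 kb, or 4.17 per 10 kb. Between the stated start and the stated end near 11.615 Mb there were 16 in 51.0 kb, or 3.14 per 10 kb. After the stated end there were 3 in 25 kb, or 1.20 per 10 kb. The median width was 231 bp before the gene, 197 bp inside it and 186 bp after it. These parts have few regions each, and their boundaries are working positions or window edges, so the order of the densities and of the medians is a description only.

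Of the 10 upstream regions, 3 formed an evenly spaced triplet with gaps of 811 bp each, spanning 2394 bp. They were chr2:11556700-11556952 (253 bp, centre at -7.17 kb), chr2:11557764-11557985 (222 bp, -6.13 kb) and chr2:11558797-11559093 (297 bp, -5.06 kb). The widest upstream region was chr2:11549877-11550247 (371 bp, -13.9 kb), wider than 97.9% of the regions of chromosome 2. Its downstream neighbour, chr2:11551305-11551581, was 277 bp wide.

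Inside the stated limits of Il2ra, 12 of the 16 regions were centred between 9.25 and 31.2 kb after the start, and a stretch of 13703 bp without regions followed. Beyond that stretch lay the widest Il2ra region, chr2:11608958-11609378 (421 bp), with its centre 45.2 kb after the stated start and at -5.83 kb from the stated end. Only 55 of the 5909 regions of chromosome 2 were as wide or wider, itself included. The closest neighbours of the window were also intragenic: chr2:11579138-11579265, at 128 bp the narrowest of the 29, and chr2:11579329-11579574 (246 bp), 63 bp apart. The longest gap in the window, 14752 bp, spanned the stated end of the gene. It ran from 2865 bp before that position, after chr2:11612004-11612135 (132 bp), to 11888 bp beyond it, before chr2:11626888-11627041 (154 bp). Il15ra, the interleukin-15 receptor alpha chain gene, is the next protein-coding gene after Il2ra in RefSeq order, and Rbm17 is the one before it.

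The Il2rb locus had 21 regions in 80 kb, or 26.3 per 100 kb, against 3.20 per 100 kb over chromosome 15, a ratio of 8.20. They lay towards the edges of the window, and its central 0.5 held 15 per 100 kb. Open regions took up 4.62% of the Il2rb window, against 0.643% of chromosome 15. Of 1252 tiles of 80 kb on chromosome 15, 99.1% held fewer regions, and 11 held as many or more, of which 1 overlapped the window itself. No start position for Il2rb on mm9 was used here, so its regions are placed relative to the middle of the window. Tmprss6 and C1qtnf6 are the protein-coding genes on either side of Il2rb in RefSeq order.

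**Figure D2:**
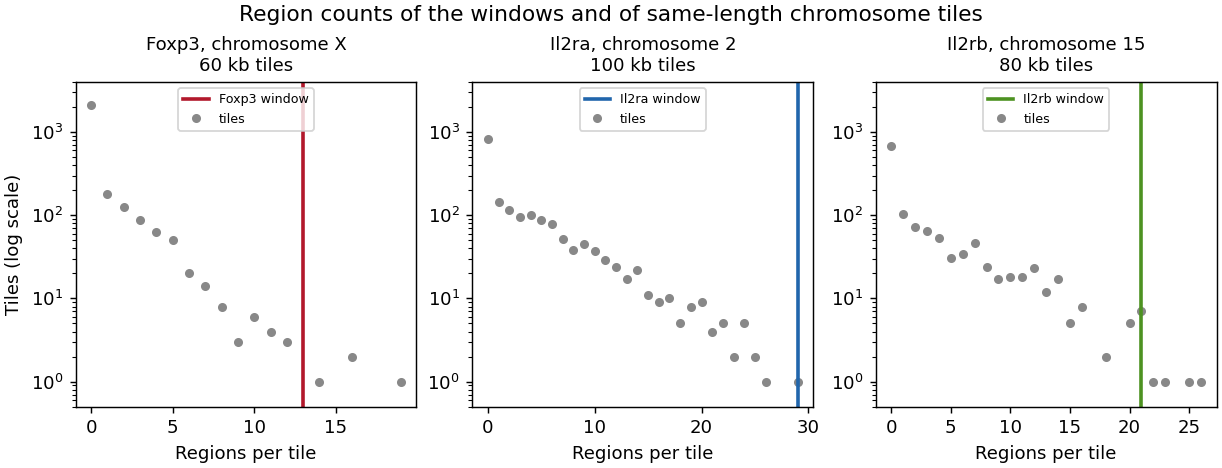
Number of chromosome tiles (vertical axis, log scale) that hold each number of regions (horizontal axis), for adjoining tiles of 60 kb on chromosome X, 100 kb on chromosome 2 and 80 kb on chromosome 15; the coloured line is the window. The Foxp3 window (13 regions), the Il2ra window (29) and the Il2rb window (21) lie in the upper tail of their chromosomes.

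Some regions of the Il2rb window came in tight groups, whereas others stood alone, and the empty stretches between them varied in length. Joining neighbours under 1 kb apart gave 11 groups, where a region that stood alone counts as a group. The largest held 4 regions within 1663 bp at the lower edge of the window. The window edge cuts this group, since the next region outside lies 252 bp before it. That group contained the narrowest regions of all 63, chr15:78280979-78281072 and chr15:78281719-78281812, both 94 bp wide, the minimum width on the whole list. A group of 3 regions spanned 808 bp and held both the widest Il2rb region, chr15:78340638-78340931 (294 bp, centre at 20.8 kb), and the shortest gap of the 3 windows, 15 bp to chr15:78340947-78341054 (108 bp).

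The other wide Il2rb regions were chr15:78325455-78325725 (271 bp, centre at 5.59 kb), chr15:78348783-78349051 (269 bp, 28.9 kb), chr15:78358628-78358847 (220 bp, 38.7 kb) and chr15:78293483-78293691 (209 bp, -26.4 kb). The first 2 of these stood alone. The region of 271 bp had 1172 bp free before it and 7269 bp after it. The longest empty stretch of the window, 14037 bp, ended at its neighbour chr15:78324103-78324282 (180 bp). Of the 21 regions, 8 lay below the middle of the window and 13 above it.

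The windows differed in how wide their regions were. The median width was 237 bp at Foxp3 (range 151 to 442 bp), against 192 bp on chromosome X. It was 206 bp at Il2ra (128 to 421 bp), against 191 bp on chromosome 2. It was 178 bp at Il2rb (94 to 294 bp), against 191 bp on chromosome 15. Thus, as listed, Foxp3 and Il2ra lay above their chromosomes and Il2rb below. The Il2rb direction depends on the listing, since its median was 202.5 bp with neighbours under 200 bp apart merged. The median of chromosome 15 was not recomputed with this setting. The upper quartiles of chromosomes X, 2 and 15 were 229, 226 and 227 bp as listed. Wider than these were 7 of 13 Foxp3 regions, 10 of 29 Il2ra regions and 3 of 21 Il2rb regions.

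Narrow regions showed the reverse order. At Foxp3 none of the 13 regions was 150 bp wide or less, against 14.7% of the regions of chromosome X. At Il2ra there were 3 of 29 (10.3%), against 15.3% on chromosome 2. At Il2rb there were 6 of 21 (28.6%), against 15.9% on chromosome 15. How a called width relates to the strength of the signal is unknown here, since the list gives no signal.

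Neighbouring regions were closer together in each window than on its chromosome, which in part restates the higher density given above. Gaps inside a window are also bounded by its length, whereas those of a chromosome are not. The median gap was 1523 bp at Foxp3, against 9311 bp on chromosome X, and 1920 bp at Il2ra, against 5113 bp on chromosome 2. It was 1015 bp at Il2rb, against 5113 bp on chromosome 15, but the Il2rb value rested on regions that almost touch. With neighbours under 200 bp apart merged it was 3589 bp, and with only regions wider than 150 bp it was 3613 bp. The median gap of chromosome 15 was not recomputed with these settings, so 5113 bp is not a like value for them. Gaps under 200 bp made up 1 of 12 at Foxp3 (8.33%), 2 of 28 at Il2ra (7.14%) and 5 of 20 at Il2rb (25%), against 11.6%, 12.6% and 12.5% on chromosomes X, 2 and 15. Gaps under 1 kb made up 4 of 12 at Foxp3 (33.3%), 8 of 28 at Il2ra (28.6%) and 10 of 20 at Il2rb (50%), against 25.4%, 29.3% and 28.5% on chromosomes X, 2 and 15. The Il2rb share was above that of its chromosome at both distances and the Foxp3 share at 1 kb alone, from few gaps each.

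**Figure D3:**
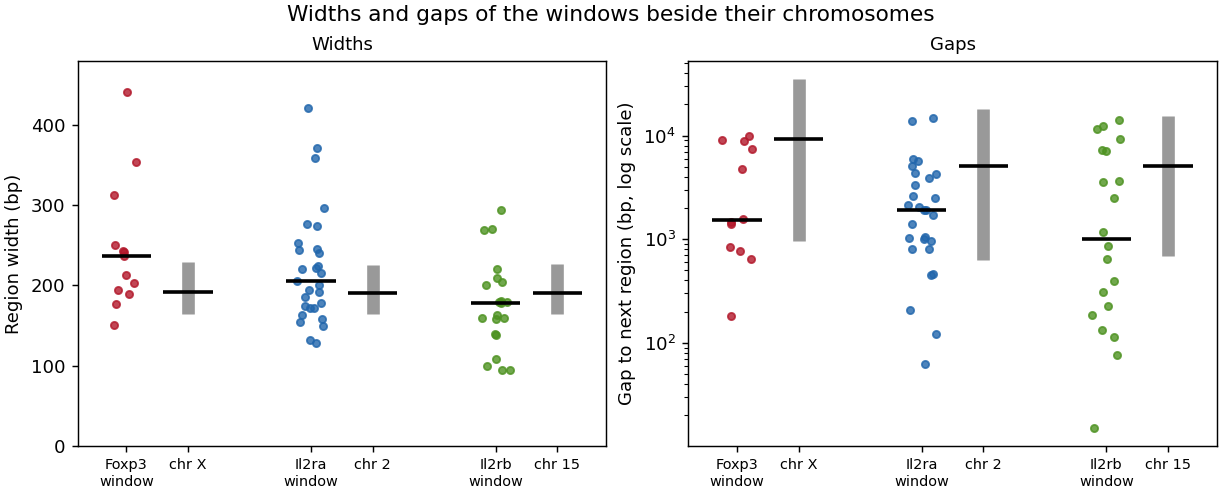
Width of each region in bp (left) and gap to the next region in bp on a log scale (right), one point per region or gap, for each window and, beside it, its chromosome; black bars are medians and grey bars span the interquartile range of the chromosome. As listed, Foxp3 widths (median 237 bp) sit above and Il2rb widths (median 178 bp) below the chromosome medians of 192 and 191 bp.

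The surroundings of the windows were unlike each other. The Foxp3 window, with 13 regions, had 1, 1, 6, 2 and 1 regions in the 5 steps of 60 kb upstream, nearest first. Downstream, the 5 steps held 8, 10, 6, 2 and 11. Of the 5 downstream steps, 4 held more regions than 97.7% to 99.6% of the tiles of chromosome X. Upstream, only the step with 6 regions did (97.7%). The Il2ra window, with 29, had 13 in the adjoining 100 kb at lower coordinates and 6 at higher ones, where the count dropped to 1, 1, 0 and 0 over the following steps. The Il2rb window, with 21, had 12 regions in the 80 kb at lower coordinates and 25 at higher ones. Widening by 50 kb on both sides lowered the density to 11.9 regions per 100 kb at Foxp3 and 16.0 at Il2ra, but left 24.4 at Il2rb. The Foxp3 and Il2ra windows held more regions than either adjoining step, and the Il2rb window fewer than the step after it. Steps rich in regions for their chromosome also followed the Foxp3 window, and 1 lay upstream of it. A 100 kb step that held 28 regions, against 29 in the Il2ra window, lay 5 window lengths before it.

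**Figure D4:**
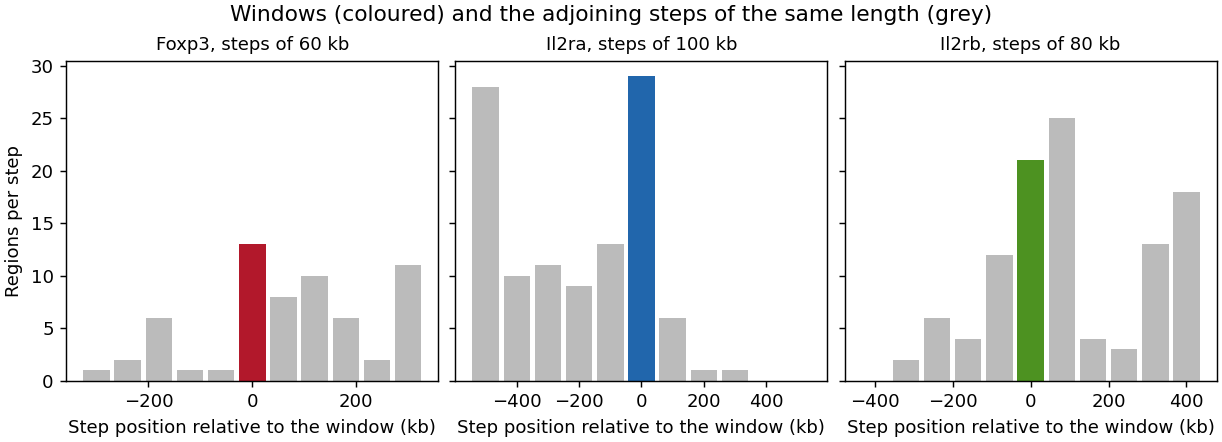
Number of regions (vertical axis) in each window (coloured) and in 5 adjoining steps of the same length on both sides (grey), by position in kb (horizontal axis). The Foxp3 window (13) and the Il2ra window (29) exceed both neighbours, and the Il2rb window (21) lies below the next step (25).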

How the data were processed

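ATAC-seq was performed on sorted Treg cells of 16 samples in 8 groups of 2, grouped by their titles. Per the submitters' processing notes, the tools were HOMER 4.6, Bowtie2 2.2.4, cutadapt 1.8.3, Picard 1.130 and SAMtools 1.3, and the build was mm9, with no role, order or setting given. Not given in the sources used here are how samples were combined, the calling threshold and any shift of cut positions. Per the file header, the deposited list holds positions only, with no score, signal or count.

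Starts were raised by 1 base to 1-based positions. A region was counted where it overlapped a window or tile by 1 base. Density was the number of regions per 100 kb, taking each chromosome to end with its last region, and tiles ran from the first region of each chromosome. Tile shares describe the chromosome and are not p-values. All members were described. Those named in full were every Foxp3 region and, for Il2ra and Il2rb, the 5 widest, the narrowest, the closest neighbours and those nearest the stated positions; the evenly spaced Il2ra triplet, the regions beside a named one and the Il2rb region that ends the longest gap were named after their values were seen. The windows, lists and gene positions were chosen with earlier results of these data known. Gene names, gene order and promoters came from RefSeq (GRCm38.p6), and no coordinates were converted. Annotation of regions, motif searches in regions and checks of cell type marker loci need mm9 sequence or annotation and were not run. Counting was tested on simulated data. Python 3.11.15, numpy 2.4.6, pandas 2.3.3, scipy 1.17.1 and matplotlib 3.10.9 were used.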

Additional observations from a re-analysis of the deposited data

How the results depend on the processing

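Of 48 recomputed values of density, tile share, median width and median gap, 39 stayed within 1.5 times the density, or within the 95% binomial interval of the share or median, and 9 moved beyond it. Whether a share or median stayed depends on how wide its interval is. The Il2rb median gap was counted as staying, at 1015 bp as listed and 3589 bp with neighbours under 200 bp apart merged. With only regions wider than 150 bp that gap was 3613 bp, also counted as staying. Widening by 50 kb on both sides gave 11.9 regions per 100 kb at Foxp3 and 16.0 at Il2ra, and the central 0.5 of the window gave 15 at Il2rb. Among tiles with 1 region or more, 99.3% held fewer regions than the Foxp3 window and 98.1% fewer than the Il2rb window. Tiles shifted by 0.5 of a window gave 99.7% at Il2rb. At Il2ra the share was 100% by bases covered, 100% with neighbours under 200 bp apart merged and 100% with only regions wider than 150 bp. With these last 2 settings the ratio of density to the chromosome was 22.0 and 24.7 at Foxp3, 9.50 and 9.43 at Il2ra, and 7.14 and 6.97 at Il2rb. The intervals treat regions or tiles as independent draws and do not describe the spread between mice. No paired analysis was possible because the regions carry no per-sample measurements. Leaving out single replicates was not possible either, and what depth limits is unknown.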
